A study of Mus musculus with 12 samples.

Results

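The BCL-2 family genes described here are 10 genes that set whether a cell lives or dies through its mitochondria: the survival genes Bcl2, Bcl2l1, Mcl1, Bcl2a1b and Bcl2a1d, the effector Bax, and the BH3-only genes Bbc3, Bcl2l11, Pmaip1 and Bid. They were taken by gene symbol from a table of 24346 genes, and all 10 were found and were among the 10311 genes tested. The samples were wild-type mouse bone-marrow-derived macrophages, grown from marrow over 7 days in medium that held M-CSF and 10% serum. There were 3 libraries in each of 4 groups: tunicamycin plus LPS, tunicamycin, LPS, and control. Tunicamycin, which blocks N-linked glycosylation and so causes endoplasmic reticulum (ER) stress, was used at 5 ug/ml and preceded LPS by 3 h. LPS, the bacterial lipopolysaccharide sensed by TLR4, was used at 1 ng/ml for 3 h. The labels do not give the time for which cells with tunicamycin alone were exposed, nor whether tunicamycin stayed during LPS. A difference between both agents and tunicamycin alone, and the interaction that uses it, may therefore include a difference in tunicamycin exposure, which cannot be told apart from LPS here. Per its title, the study concerned how ER stress affects the inflammatory response of macrophages.

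In the BCL-2 family, survival proteins hold the pore-forming effectors BAX and BAK in check at the mitochondrial outer membrane. BH3-only proteins are made or activated under stress, bind the survival proteins or the effectors, and so favour release of cytochrome c and activation of caspases. ER stress is known to act on BH3-only genes such as Bbc3 and Bcl2l11 through the transcription factor CHOP, while NF-kB, which LPS activates, is known to drive the survival genes Bcl2a1 and Bcl2l1.

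The mouse genome holds 4 copies of Bcl2a1, and part of their start regions is shown because all 4 carry the same short element and because the copies differ little there. The motif TGATGNAA, the C/EBP-ATF response element that CHOP and ATF4 can bind, was searched on both strands in windows from 250 bases before to 50 bases after each annotated start. The sequences are from RefSeq on GRCm38.p6, 5′ to 3′ on the gene's own strand, with the match in capitals.
Bcl2a1b: acgctgtgacaTGATGCAAacaaaaattcc
Bcl2a1a: acgctgtgacaTGATGCAAacagaaattcc
Bcl2a1c: acgctgtgacaTGATGCAAacagaaattcc
Bcl2a1d: acgctgtgacaTGATGCAAacagaaattcc
The stretches lie at chr9:89199222-89199251 (plus strand, Bcl2a1b), chr9:88956913-88956942 (plus strand, Bcl2a1a), chr9:114330018-114330047 (plus strand, Bcl2a1c) and chr9:88731828-88731857 (minus strand, Bcl2a1d). Each of the other copies differs from Bcl2a1b by 1 base over these 30 bases. The match begins 40 bases before the RefSeq start of Bcl2a1b, 106 bases before that of Bcl2a1c, and at base 5 after that of Bcl2a1a and Bcl2a1d. These positions depend on the annotation. The GENCODE starts of Bcl2a1b (89199209), Bcl2a1a (88956900) and Bcl2a1d (88731914, minus strand) all lie upstream of the stretches shown. The motif is present in 3.97% of all 32851 windows. Of the 10 genes, 9 had a window to search (14 windows in all), and the motif was found in those of Bcl2a1b and Bcl2a1d and in no other. The NF-kB consensus, present in 8.46% of windows, was found in 1 of the Bcl2l1 windows, 242 bases before its start, as GGGGGTCTCC, and in 1 of the Bbc3 windows as overlapping matches that include GGGAAACCCC. The GAS motif TTCNNNGAA, present in 8.3% of windows, was found in none. A match describes letters in a window and not binding.

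Values are the authors' FPKM, a level scaled by transcript length and by library, so levels can be set against each other between genes. Changes are log2 fold changes of FPKM + 1 with a standard error (SE), and a gene was called where limma gave it an adjusted p (Benjamini-Hochberg over all 10311 genes) under 0.05. Nothing in the labels says that the 3 libraries of a group are from different mice or dishes. The p-values therefore reflect only how these libraries scatter, which may be technical. In bulk RNA, fewer cells of a type and less RNA per cell cannot be told apart. Summed FPKM was 601943 to 666042 with both agents, 561108 to 563002 with tunicamycin, 666197 to 685010 with LPS and 603467 to 638743 in controls. It thus differed between groups and was lowest with tunicamycin alone. A scale factor per library, from the median of gene ratios, ran from 1.013 to 1.0193. In each library 9507 to 9741 genes had at least 1 FPKM, and Pearson's r across genes was 0.9726 to 0.9857 between libraries of 1 group. All 10 macrophage markers were present, with sums of 14700 to 24600 FPKM. B and plasma cell markers summed to 0.296 to 3.12 FPKM, and T and NK cell markers to at most 1.1 FPKM.

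Counts of passing genes, set against the share of all tested genes, were as follows. With LPS against control, 4 of the 10 rose and 0 fell, where 10.5% of all tested genes rose and 7.86% fell. With tunicamycin against control, 2 rose and 2 fell, where 17.9% of all genes rose and 16.6% fell. By role, LPS raised 3 survival genes (Bcl2l1, Bcl2a1b, Bcl2a1d) and the BH3-only gene Bcl2l11, while tunicamycin lowered the survival genes Bcl2l1 and Mcl1 and raised Bcl2a1d and the BH3-only gene Bbc3. With tunicamycin plus LPS against LPS, 3 rose and 1 fell (13.8% and 15.1% of all genes). With tunicamycin plus LPS against tunicamycin, 5 rose and 1 fell (8.69% and 7% of all genes). With tunicamycin plus LPS against control, 4 rose and 1 fell (20.7% and 20.2% of all genes). The interaction takes the difference between both agents and tunicamycin alone and subtracts that between LPS and control. The first of these is called the LPS effect with tunicamycin, within the limit on exposure time given above. The interaction passed for 2 genes, Bcl2l1 and Bcl2a1b, both positive, where 1.41% of all genes were positive and 1.96% negative. Bcl2a1b and Bcl2a1d share sequence, so counts were also taken with the 4 Bcl2a1 copies summed, which left 9 entries. Then 3 rose and 0 fell with LPS, and 1 rose and 2 fell with tunicamycin, each against control. With both agents, 2 rose and 1 fell against LPS, 4 rose and 1 fell against tunicamycin, and 3 rose and 1 fell against control. The comparisons share libraries: 3 of them use the same controls.

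**Figure D1:**
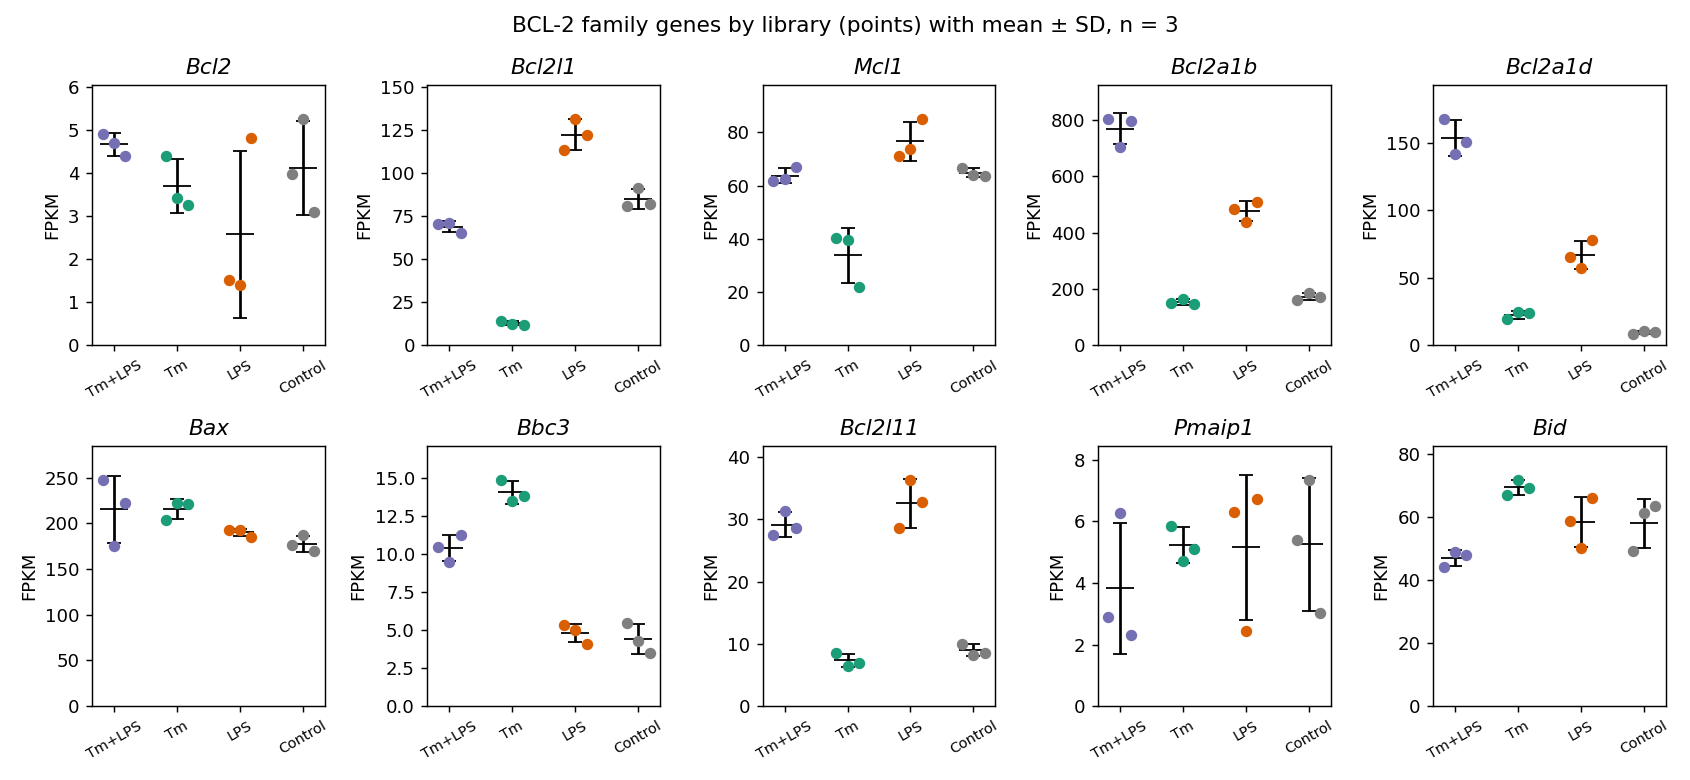
FPKM of each of the 10 genes in every library, by group (tunicamycin plus LPS, tunicamycin, LPS, control); points are libraries, and lines with error bars are means ± SD (n = 3). Bcl2l1 is lowest with tunicamycin alone (11.7 to 14.1 FPKM), and Bcl2a1b is highest with both agents (705 to 804 FPKM).

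Bcl2l1, which encodes BCL-XL, had the largest change of the 10 genes with tunicamycin alone against control. It had 70.6, 71.1 and 65.3 FPKM with tunicamycin plus LPS, 14.1, 12.7 and 11.7 FPKM with tunicamycin, 113, 132 and 122 FPKM with LPS, and 81.2, 91.6 and 82.3 FPKM in controls. No group overlapped another. Tunicamycin alone was lowest by a wide margin, and LPS alone was highest. Against controls, Bcl2l1 fell with tunicamycin by 2.64 ± 0.11 on the log2 scale (SE; 6.23-fold; adjusted p = 2.39e-11) and rose with LPS by 0.52 ± 0.11 (1.43-fold; adjusted p = 0.00205). With quantile normalization the LPS rise was 0.32 (adjusted p = 0.0499). With both agents Bcl2l1 was higher than with tunicamycin alone, whose exposure time is not known, by 2.34 ± 0.11 (5.07-fold; adjusted p = 5.67e-11). The LPS effect was therefore greater with tunicamycin than without it by 1.82 ± 0.15 (interaction, adjusted p = 1.7e-06). Even so, tunicamycin plus LPS stayed below LPS alone by a log2 change of -0.82 ± 0.11 (1.76-fold; adjusted p = 2.76e-05). Against control it was lower by a log2 change of -0.30 ± 0.11 (adjusted p = 0.035). That last call did not hold without control replicate 2 (adjusted p = 0.125), control replicate 3 (0.0594), tunicamycin plus LPS replicate 1 (0.0505) or tunicamycin plus LPS replicate 3 (0.103). Bcl2l1 lies at chr2:152780668-152831728 on the minus strand of mm10. GENCODE lists 9 transcripts for it, and 1 value per gene does not separate BCL-XL from shorter forms.

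Mcl1 encodes a short-lived survival protein on which many myeloid cells depend. It had 61.9, 62.4 and 67.1 FPKM with tunicamycin plus LPS, 40.2, 39.5 and 21.9 FPKM with tunicamycin, 71.3, 73.7 and 85.1 FPKM with LPS, and 66.8, 64.0 and 63.6 FPKM in controls. All 3 tunicamycin libraries were below every other library, and replicate 3 of them was the lowest. Mcl1 fell with tunicamycin by 0.97 ± 0.17 on the log2 scale against control (1.95-fold; adjusted p = 0.00035). Without tunicamycin replicate 3 the change was -0.69 (adjusted p = 0.000353). With tunicamycin plus LPS, Mcl1 was higher than with tunicamycin alone by 0.94 ± 0.17 (1.92-fold; adjusted p = 0.00097), or 0.66 without that library. The levels with both agents overlapped those of controls (log2 change -0.02, 95% interval -0.38 to 0.34). The LPS libraries were all above the controls, but the difference of 0.24 ± 0.17 did not pass (adjusted p = 0.406). The interaction of 0.71 ± 0.24 did not pass either (adjusted p = 0.143). Mcl1 lies at chr3:95658788-95663176 on the plus strand.

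The Bcl2a1 genes encode A1, an NF-kB-driven survival protein of blood cells. Bcl2a1b had 804, 705 and 798 FPKM with tunicamycin plus LPS, 149, 164 and 146 FPKM with tunicamycin, 485, 437 and 509 FPKM with LPS, and 163, 185 and 171 FPKM in controls. Only the tunicamycin and control groups overlapped. With both agents its mean ranked 91st from the top of the 10311 tested genes, and in controls it ranked 556th. LPS raised Bcl2a1b by 1.46 ± 0.09 on the log2 scale against control (2.75-fold, adjusted p = 2.63e-09). With both agents Bcl2a1b was above tunicamycin alone by 2.32 ± 0.09 (adjusted p = 8.32e-12). Tunicamycin alone gave -0.18 ± 0.09, which did not pass (adjusted p = 0.148) and was 0.01 with quantile normalization. Given before LPS, tunicamycin raised Bcl2a1b by 0.69 ± 0.09 against LPS alone (1.61-fold, adjusted p = 3.18e-05). The interaction was 0.86 ± 0.13 (adjusted p = 0.000732).

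Bcl2a1d was scarcer and moved with both agents. It had 168, 142 and 151 FPKM with tunicamycin plus LPS, 19.3, 24.5 and 23.8 FPKM with tunicamycin, 65.3, 57.4 and 78.4 FPKM with LPS, and 8.61, 10.5 and 10.1 FPKM in controls. No group overlapped another. Against control, Bcl2a1d rose by 2.66 ± 0.14 on the log2 scale with LPS (adjusted p = 2.21e-10), by 1.13 ± 0.14 with tunicamycin (2.19-fold; adjusted p = 9.75e-06) and by 3.85 ± 0.14 with both (14.4-fold; adjusted p = 1.06e-12). The interaction was 0.06 (95% interval -0.35 to 0.47; adjusted p = 0.926).

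The copies share sequence, so how the authors' counting divided reads among them is uncertain. Of the 50-base words of the Bcl2a1d transcript, 79.5% occur in another copy, and 57.6% of those of Bcl2a1b do. Bcl2a1c stands apart, with a transcript of 444 bases and 10.4% of its words in another copy. In the annotation, 49.1% of the exon bases of Bcl2a1b also belong to Gm29094, a gene on the same strand without a row among the authors' FPKM values. The other copies, Bcl2a1a and Bcl2a1c, had the same order of group means as Bcl2a1d. Bcl2a1a had 33.8, 27.5 and 29.5 FPKM with both agents, 2.39, 0.517 and 2.79 FPKM with tunicamycin, 8.59, 9.24 and 6.23 FPKM with LPS, and 0.179 FPKM in control replicate 1, and it was listed at 0 in the other controls. Bcl2a1c averaged 1.57 ± 0.249 FPKM with both agents and 0.927 ± 0.535 FPKM with LPS (SD, n = 3), was at 0.195 FPKM in tunicamycin replicate 1, and was listed at 0 in all 3 controls. Summed over the 4 copies, the level was 954 ± 69.7 FPKM with both agents, 178 ± 10.3 with tunicamycin, 553 ± 45.7 with LPS and 183 ± 12.4 in controls (SD, n = 3). The sum rose with LPS by 1.59 ± 0.09 on the log2 scale (adjusted p = 8.39e-10), and did not pass with tunicamycin alone (-0.04 ± 0.09, adjusted p = 0.766). With both agents the sum was above LPS alone by 0.79 ± 0.09 (adjusted p = 7.65e-06), with an interaction of 0.83 ± 0.13 (adjusted p = 0.000996). Bcl2a1d made up 16.1 ± 0.637% of the sum with both agents, 12.7 ± 1.27% with tunicamycin, 12.1 ± 0.961% with LPS and 5.31 ± 0.276% in controls.

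Neutrophils are rich in A1, so their markers were set beside these values. Of 10 listed markers, 9 were in the table and 7 passed the low-value filter. Their summed level was 33.8 to 48.9 FPKM with both agents, 28.6 to 49.1 with tunicamycin, 219 to 348 with LPS and 105 to 146 in controls. Most of the difference in the sum lay in S100a8 and S100a9. S100a8 averaged 5.69 FPKM with both agents, 9.15 with tunicamycin, 138 with LPS and 67 in controls. With both agents against controls, the markers did not all move alike. Ngp averaged 10.8 FPKM with both agents, 39 with LPS and 11.4 in controls. Cxcr2 averaged 1.19 FPKM with both agents, 1.07 with LPS and 0.555 in controls. Against LPS, every marker with a value except Cxcr2 averaged lower with both agents. The part of neutrophils in the Bcl2a1 values was not tested. Mpo and Elane, which mark early neutrophils, were below 1 FPKM on average in every group. Dendritic cell markers summed to 2.18 to 5.27 FPKM with both agents, 0.501 to 1.14 with tunicamycin, 3.81 to 8.78 with LPS and 0.179 to 0.594 in controls. The largest means were those of Ccr7, at 2.19 FPKM with both agents and 3.27 with LPS, against 0 in controls. Xcr1 and Zbtb46 were also higher in those groups than in controls, while Flt3 and Clec9a averaged at most 0.0494 FPKM in every group. The part of dendritic cells was not tested. Stromal markers summed to 25.9 to 60.1 FPKM with both agents, 29.8 to 50.7 with tunicamycin, 18 to 23.6 with LPS and 15.7 to 20 in controls. They were thus higher in both tunicamycin groups. Bcl2l1, Bcl2a1d and Bbc3 passed in tunicamycin against control and in both agents against LPS, and Mcl1 passed in tunicamycin against control. The part of stromal cells in those changes was not tested.

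Bcl2, the founding member of the family, had the lowest mean of the 5 survival genes in each of the 4 groups. It had 4.91, 4.70 and 4.38 FPKM with tunicamycin plus LPS, 4.40, 3.42 and 3.26 FPKM with tunicamycin, 1.51, 1.40 and 4.803 FPKM with LPS, and 3.98, 5.25 and 3.10 FPKM in controls. LPS replicate 3 lay well above the other LPS libraries and within the range of controls. No comparison passed for Bcl2: the LPS change against control was -0.62 ± 0.29 (adjusted p = 0.171), and that of both agents against LPS was 0.79 ± 0.29 (adjusted p = 0.053). Without LPS replicate 3 these were -1.04 (adjusted p = 0.00745) and 1.20 (adjusted p = 0.00196), and the interaction was 1.31 (adjusted p = 0.0431). With all libraries kept, the difference of both agents against LPS also passed with a robust fit (adjusted p = 0.0492).

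**Figure D2:**
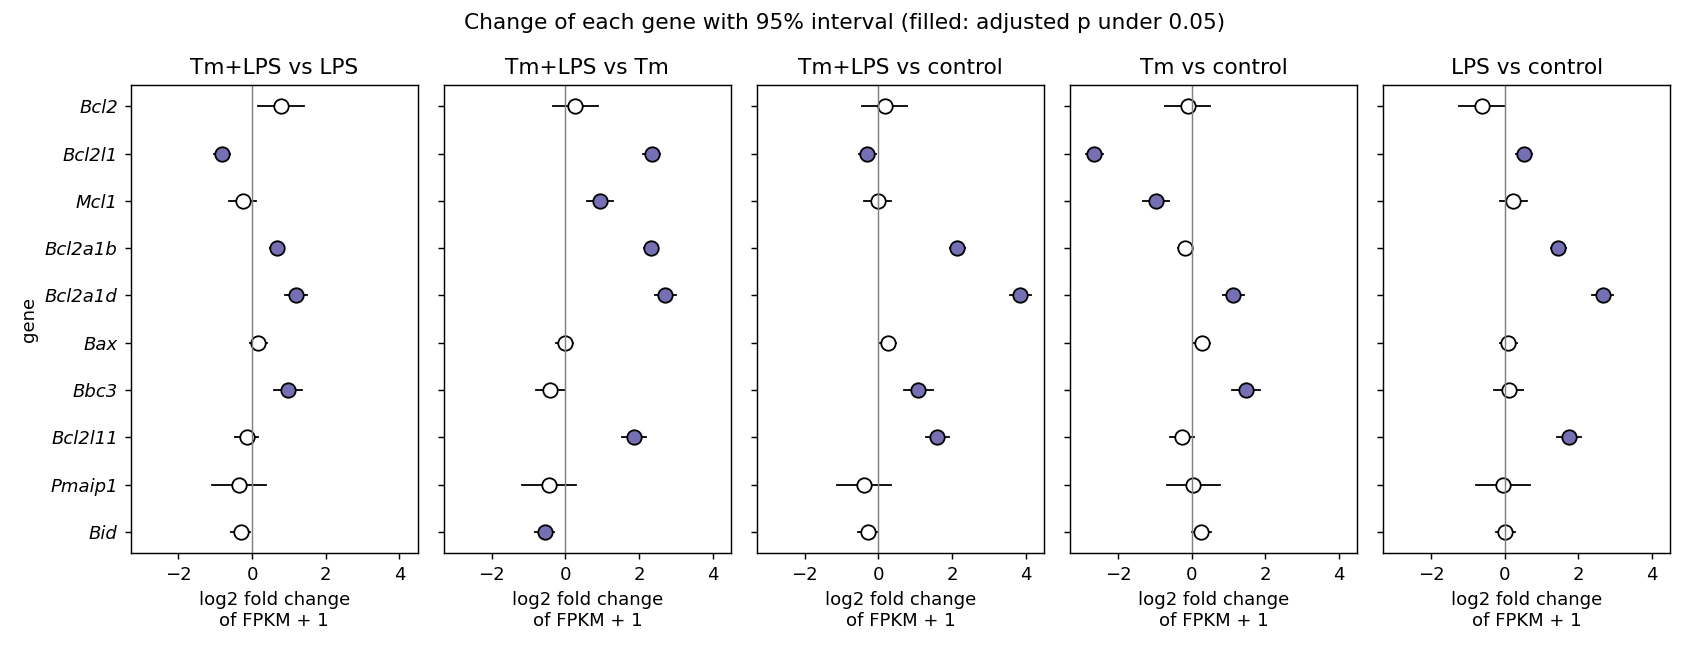
Log2 fold change of FPKM + 1 for each of the 10 genes in each comparison, with 95% intervals; filled points have an adjusted p under 0.05. Bcl2l1 lies at -2.64 for tunicamycin against control, and Bcl2a1d at 3.85 for tunicamycin plus LPS against control.

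Bax, the effector, was abundant in every library. It had 248, 175 and 223 FPKM with tunicamycin plus LPS, 203, 223 and 221 FPKM with tunicamycin, 193, 192 and 185 FPKM with LPS, and 176, 187 and 170 FPKM in controls. The tunicamycin libraries were all above the controls, while tunicamycin plus LPS spanned from the control range upward. The difference between tunicamycin and control was 0.28 ± 0.11 on the log2 scale and did not pass (adjusted p = 0.0563). It lay on the other side of the threshold with a filter at 5 FPKM (0.0472), with quantile normalization (0.000403), with only the groups compared (0.0164), and without replicate 1 (0.0296) or replicate 2 (0.0137) of tunicamycin plus LPS. Without replicate 2 of tunicamycin plus LPS, Bax also passed for both agents against LPS (0.0203) and against control (0.00229). With all libraries kept, both of these also passed with quantile normalization (0.0201 and 0.0394). In the annotation, 12.2% of the Bax exon bases belong also to Gm45808 on the same strand, which has no row among the authors' FPKM values.

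Among the BH3-only genes, Bbc3 responded to tunicamycin and Bcl2l11 to LPS. Bbc3 encodes PUMA, which binds all the survival proteins. It had 10.5, 9.46 and 11.2 FPKM with tunicamycin plus LPS, 14.9, 13.5 and 13.8 FPKM with tunicamycin, 5.30, 4.97 and 4.11 FPKM with LPS, and 5.46, 4.29 and 3.50 FPKM in controls. Every library with tunicamycin was above every library without it. Bbc3 rose with tunicamycin by 1.49 ± 0.18 on the log2 scale against control (2.8-fold, adjusted p = 1.09e-05). With tunicamycin before LPS it was above LPS alone by 0.98 ± 0.18 (1.97-fold, adjusted p = 0.000753). The libraries with both agents were all below those with tunicamycin alone, but the difference of -0.40 ± 0.18 did not pass (adjusted p = 0.158). LPS alone gave 0.11 ± 0.18 (adjusted p = 0.768). Bbc3 lies at chr7:16308393-16318205 on the plus strand.

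Bcl2l11 encodes BIM, which can bind all the survival proteins and activate BAX. It had 27.5, 31.3 and 28.6 FPKM with tunicamycin plus LPS, 8.56, 6.47 and 6.97 FPKM with tunicamycin, 28.6, 36.3 and 32.7 FPKM with LPS, and 10.0, 8.23 and 8.59 FPKM in controls. All libraries with LPS were above all libraries without it. LPS raised Bcl2l11 by 1.75 ± 0.15 on the log2 scale without tunicamycin (3.37-fold; adjusted p = 1.55e-07) and by 1.86 ± 0.15 with it (3.63-fold; adjusted p = 1.23e-07). The interaction was 0.11 (95% interval -0.34 to 0.56; adjusted p = 0.871). Tunicamycin alone gave -0.26 ± 0.15 against control, which did not pass (adjusted p = 0.202). The gene spans chr2:128126038-128162547 on the plus strand, and GENCODE lists 8 transcripts, which 1 value per gene does not separate.

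Bid, which is cleaved by caspase-8 and so links death receptors to mitochondria, was the most abundant BH3-only gene. It had 44.1, 48.8 and 48.0 FPKM with tunicamycin plus LPS, 67.1, 72.0 and 69.5 FPKM with tunicamycin, 58.8, 50.4 and 66.2 FPKM with LPS, and 49.2, 61.4 and 63.6 FPKM in controls. The libraries with both agents were below all others. Bid fell with both agents against tunicamycin by 0.56 ± 0.12 on the log2 scale (1.47-fold; adjusted p = 0.00472). The differences against LPS (-0.30 ± 0.12, adjusted p = 0.0743) and against control (-0.29 ± 0.12, adjusted p = 0.0663) did not pass. The difference against LPS lay past the threshold without LPS replicate 2 (0.0353). That against control did so without control replicate 1 (0.0192) and, with all libraries kept, with quantile normalization (0.0121). In the annotation 17.7% of the Bid exon bases lie opposite Bcl2l13, and whether the counting used strand is not stated in the labels. Bcl2l13 averaged 5.2 FPKM with both agents, 7.21 with tunicamycin, 5.4 with LPS and 5.88 in controls. Its part in the Bid values was not tested.

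Pmaip1 encodes NOXA, a BH3-only protein that acts chiefly on MCL-1. It had 2.90, 6.27 and 2.31 FPKM with tunicamycin plus LPS, 5.86, 4.72 and 5.10 FPKM with tunicamycin, 6.32, 2.46 and 6.72 FPKM with LPS, and 5.39, 7.36 and 3.02 FPKM in controls. All groups overlapped and no comparison passed. The SD reached 55.8% of the mean with both agents. The 95% interval of tunicamycin against control ran from -0.68 to 0.78 on the log2 scale, so changes within it were not excluded.

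**Figure D3:**
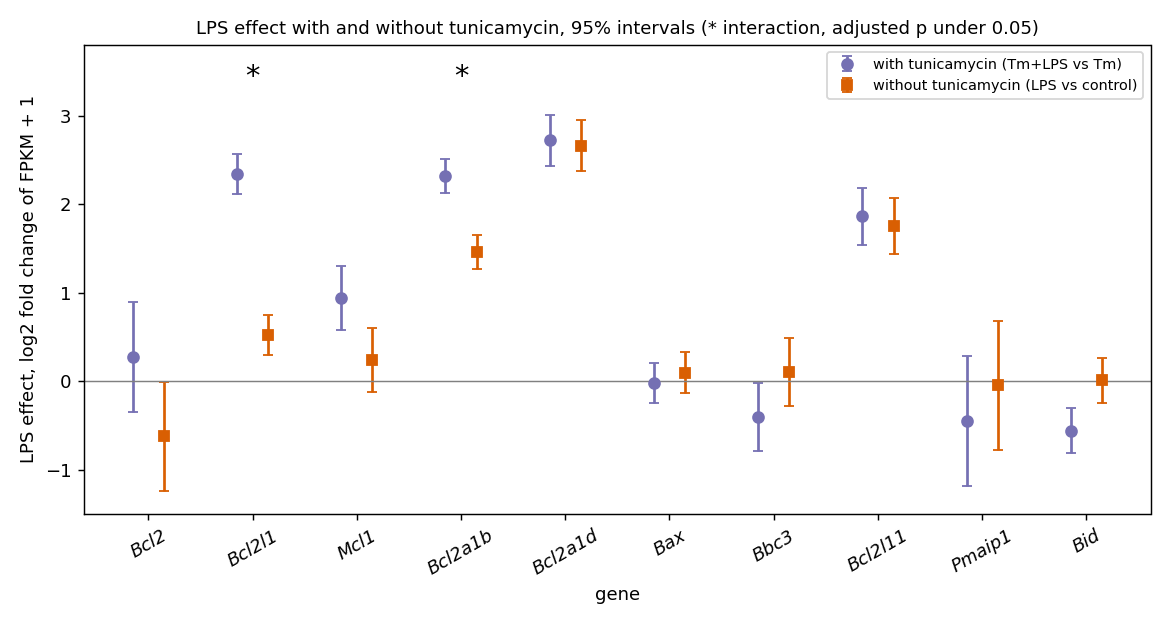
LPS effect on each of the 10 genes with tunicamycin (tunicamycin plus LPS against tunicamycin) and without it (LPS against control), as log2 fold change of FPKM + 1 with 95% intervals; an asterisk marks an interaction with adjusted p under 0.05. Only Bcl2l1 (2.34 against 0.52) and Bcl2a1b (2.32 against 1.46) carry one.

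The make-up of the survival genes was then described within each library, as shares of the summed FPKM of 7 genes (Bcl2, Bcl2l1, Mcl1 and the 4 Bcl2a1 copies). These are descriptions, with no test. The Bcl2a1 copies made up 87.4 ± 0.879% of that sum with tunicamycin plus LPS, 78.03 ± 4.06% with tunicamycin, 73.2 ± 2.09% with LPS and 54.3 ± 1.09% in controls (SD, n = 3). Bcl2l1 made up 6.34 ± 0.605% with both agents, 5.64 ± 0.499% with tunicamycin, 16.3 ± 1.92% with LPS and 25.2 ± 0.379% in controls. The share of Bcl2l1 was thus low in both tunicamycin groups, although its level averaged 69.0 FPKM with both agents and 12.8 with tunicamycin alone. Mcl1 made up 5.86 ± 0.394% with both agents, 14.7 ± 3.75% with tunicamycin, 10.2 ± 0.516% with LPS and 19.3 ± 1.36% in controls.

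**Figure D4:**
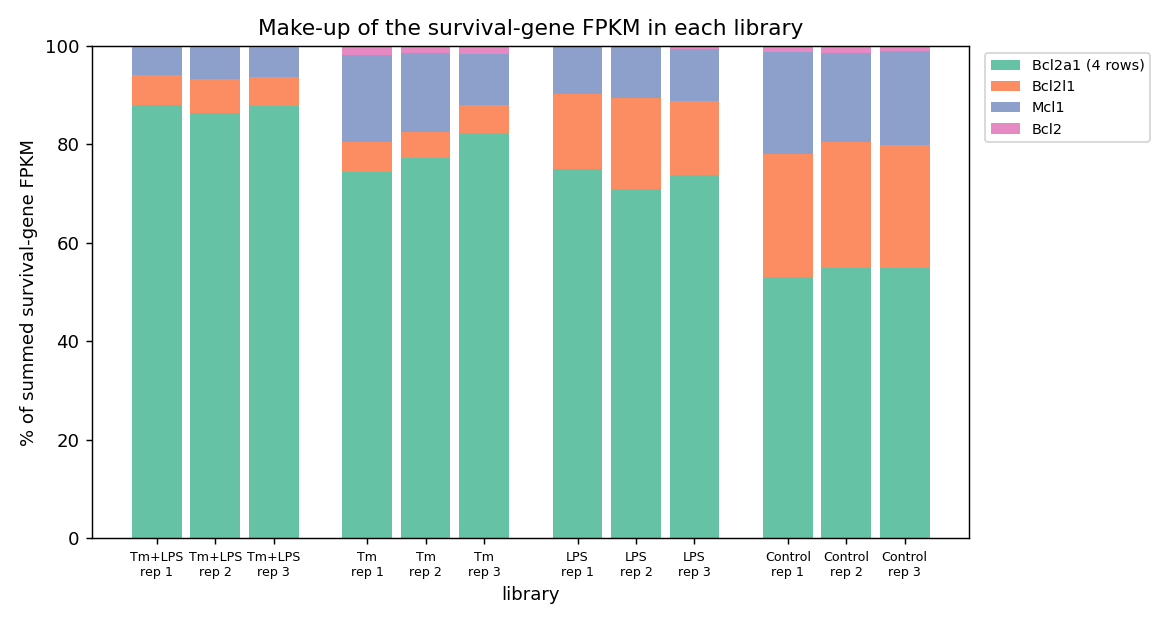
Share, in percent, of the summed survival-gene FPKM taken by the 4 Bcl2a1 copies together, Bcl2l1, Mcl1 and Bcl2, as 1 stacked bar per library, by group. The Bcl2a1 copies take 87.4% on average in the libraries with both agents and 54.3% in controls.

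The summed survival genes reached 1092 ± 69.2 FPKM with tunicamycin plus LPS, 228 ± 17.9 with tunicamycin, 755 ± 48.8 with LPS and 337 ± 17.7 in controls. The 4 BH3-only genes together varied less, at 90.3 ± 5.51 FPKM with both agents, 96.1 ± 0.708 with tunicamycin, 101 ± 7.96 with LPS and 76.7 ± 5.88 in controls. The ratio of the sums was 12.2 ± 1.47 with both agents, 2.37 ± 0.170 with tunicamycin, 7.48 ± 0.105 with LPS and 4.40 ± 0.209 in controls, with no overlap between groups. That order rests on the Bcl2a1 copies, among which the division of reads is uncertain. Without them the ratio, added after the values were seen, was 1.52 ± 0.0896 with both agents, 0.524 ± 0.120 with tunicamycin, 2.00 ± 0.168 with LPS and 2.01 ± 0.141 in controls. Both agents then lay below LPS and control. Bid made up 52.0 ± 1.17% of the BH3-only sum with both agents, 72.3 ± 2.49% with tunicamycin, 57.7 ± 3.69% with LPS and 75.5 ± 5.29% in controls. The ratio of Bbc3 to Bcl2l1 was 0.151 ± 0.0195 with both agents, 1.10 ± 0.0703 with tunicamycin, 0.0394 ± 0.00674 with LPS and 0.0522 ± 0.0132 in controls. These ratios are of RNA levels and give no measure of protein.

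Genes whose levels were most like each member were ranked by Pearson's r of log2 values over the 12 libraries, as a description in which group differences set most of the likeness. Bcl2l1 was most like Hnrnpab (0.977), Ccl2 (0.976) and Arhgdia (0.975). Bcl2a1b was most like Nos2 (0.988), Tnfsf15 (0.987) and Mir155hg (0.986), and Bcl2a1d was most like Cd83 (0.994). Bbc3 was most like Cnot8 (0.98) and Slc1a4 (0.979), and Bcl2l11 was most like Mitf (0.992), Cdkn1a (0.99) and Nfkbia (0.987). The highest values for Pmaip1 (Hexim2, 0.828) and Bid (Mettl20, 0.89) were lower.

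The rest of the pathway was read from 5 lists. Of 16 other BCL-2 family genes, 9 were tested, and those that passed in any of the comparisons were Bcl2a1a, Bcl2a1c and Bak1. Bak1, the effector that acts beside BAX, was lower with tunicamycin at 0.501 ± 0.123 FPKM, against 1.54 ± 0.203 FPKM in controls (log2 change -0.76 ± 0.23; adjusted p = 0.0157). The BH3-only gene Hrk was listed at 0 in all but the tunicamycin group, and Bmf averaged below 1 FPKM in every group.

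Of the 17 apoptosome, caspase and IAP genes, all tested, 2 rose and 2 fell with LPS, 1 rose and 3 fell with tunicamycin, and 2 rose and 4 fell with both agents against control. Among all tested genes 10.5% rose and 7.86% fell with LPS, and 17.9% rose and 16.6% fell with tunicamycin. With both agents, 20.7% rose and 20.2% fell. In these comparisons with control, the counts of the list are near that background or below it. With both agents against tunicamycin, 1 rose and 5 fell (8.69% and 7% of all genes). Against LPS, 1 rose and 5 fell (13.8% and 15.1% of all genes). By count the falls were above the background in both of these comparisons. No test of the list was run, and the list was chosen with earlier results of these data known. Birc3, an NF-kB target that encodes the ubiquitin ligase cIAP2, had 81.9 ± 11.4 FPKM with both agents, 20.6 ± 0.164 with tunicamycin, 70.2 ± 4.21 with LPS and 6.63 ± 0.923 in controls. It rose in each comparison with control, and its interaction was negative (-1.29 ± 0.19; adjusted p = 0.00052), opposite in sign to those of Bcl2l1 and Bcl2a1b. Casp9, the initiator caspase of the apoptosome, had 4.17 ± 1.21 FPKM with both agents against 10.9 ± 2.17 FPKM in controls (log2 change -1.22 ± 0.24; adjusted p = 0.000558).

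Of 14 genes listed as upstream regulators of BH3-only genes, 11 were tested. With tunicamycin against control 8 rose and 2 fell (17.9% and 16.6% of all genes). The list held genes known to respond to ER stress, such as Ddit3, Atf4, Trib3 and Chac1, and tunicamycin causes ER stress. This count was thus largely set by the choice of list and does not describe regulators of BH3-only genes as a class. Ddit3, which encodes CHOP, had 1093 ± 230.1 FPKM with both agents, 1601 ± 144.7 with tunicamycin, 42.4 ± 6.96 with LPS and 45.6 ± 6.17 in controls. Its rise with tunicamycin was 5.11 ± 0.15 on the log2 scale (adjusted p = 3.34e-13), and it was lower with both agents than with tunicamycin alone by a log2 change of -0.57 ± 0.15 (adjusted p = 0.0143). With LPS against control 5 of the 11 rose and 3 fell (10.5% and 7.86% of all genes). Nfkb1, an NF-kB subunit gene, rose by 1.81 ± 0.17 (adjusted p = 4.21e-07), and Rela, another, by 1.27 ± 0.12 (adjusted p = 5.88e-07). Among those that fell, Jun had a log2 change of -1.73 ± 0.17 (adjusted p = 6.69e-07) and E2f1 -1.10 ± 0.17 (adjusted p = 0.000137). The interaction passed for Jun (2.13 ± 0.24, adjusted p = 5.03e-05) and Atf3 (-0.61 ± 0.15, adjusted p = 0.0336).

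Bbc3, Pmaip1 and Bax are also known targets of p53, so 16 other p53 targets were listed, of which 13 were tested. With tunicamycin against control 4 rose and 5 fell (17.9% and 16.6% of all genes), and with both agents against control 5 rose and 7 fell (20.7% and 20.2% of all genes). Sesn2, a stress-induced sestrin, rose with tunicamycin (53.9 ± 3.60 FPKM, against 8.34 ± 0.426 in controls), while Sesn1 fell (6.09 ± 2.22 FPKM, against 38.1 ± 1.26 in controls). Of the 9 tested genes that act on MCL-1 turnover or hold BH3 proteins, 0 rose and 2 fell with tunicamycin against control (17.9% and 16.6% of all genes). Among the genes that fell was Dynll1, a dynein light chain that binds BIM, at 43.8 ± 4.46 FPKM with tunicamycin against 69.9 ± 4.16 FPKM in controls (adjusted p = 0.000327).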

How the data were processed

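RNA of 12 macrophage libraries was measured as FPKM, which the authors deposited as 1 value per gene and library. Tools named in the submitters' processing notes are Cufflinks 2.2.1, TopHat2 2.0.13, SAMtools 0.1.19 and Bowtie2 2.2.3, with the build mm10. Annotation, strand setting and scaling between libraries are not given in the sources used. Read depth is unknown, and counts were not recovered: at most 19.0% of genes below 0.3 FPKM lay within log2 0.02 of the commonest ratio between libraries.

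Genes with at least 1 FPKM in at least 3 libraries (10311) were fitted as log2(FPKM + 1) with limma 3.58.1 (lmFit, contrasts.fit, eBayes with trend). There were 6 contrasts and 1 mean per group, and p was adjusted by Benjamini-Hochberg over all genes. A pseudocount understates changes of low genes. The fit, run in R 4.3.3, was checked on simulated data (200 genes changed). Alternatives were another pseudocount (0.1), other filters, scalings and fits, the Bcl2a1 copies summed, a minimum log2 fold change of 1, and leaving out each library.

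All 10 members are named in every comparison. Of the other lists, genes were named from the up to 4 passing genes of largest change per list and comparison. Bad, Hrk and Bmf were named after their values were seen. The members and lists were chosen with earlier results of these data known. Gene coordinates are from GENCODE M21 on mm10, and start windows are from RefSeq on GRCm38.p6. Tables and figures were made with pandas 2.3.3 and matplotlib 3.10.9 in Python 3.11.15.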

Additional observations from a re-analysis of the deposited data

Results flagged for a closer look

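For Bcl2l1 and Bcl2a1b the LPS effect differed between cells with and without tunicamycin, by a test of the difference itself (the limma interaction, Benjamini-Hochberg over all genes). For Bcl2l1 the LPS effect was greater with tunicamycin by 1.82 on the log2 scale (SE 0.15; adjusted p = 1.7e-06). For Bcl2a1b it was greater by 0.86 (SE 0.13; adjusted p = 0.000732). Over the alternatives tried, the adjusted p ran from 1.07e-06 to 0.000203 for Bcl2l1 and from 0.000505 to 0.018 for Bcl2a1b. The effect with tunicamycin is that of both agents against tunicamycin alone, and since the labels do not give the exposure time of cells with tunicamycin alone, it may include a difference in tunicamycin exposure. With the 4 Bcl2a1 copies summed, the difference was 0.83 (adjusted p = 0.000996).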

How the results depend on the processing

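Over the members' changes, 691 of 720 values from leaving out 1 library kept their direction and their side of the threshold, 4 lost a call, 9 gained one and 16 turned direction; over the other settings these were 619, 11, 7 and 5 of 642. With a minimum log2 fold of 1, tunicamycin plus LPS against LPS had 1 member called (4 without it) and the interaction 1 (2 without it); over all genes that minimum left 858, 1043, 785, 602 and 1593 of 1894, 3557, 2978, 1618 and 4211 calls (LPS against control, tunicamycin against control, both against LPS, both against tunicamycin, both against control). Calls over all genes were 1064 for both agents against tunicamycin without tunicamycin replicate 2, and 229 against 347 for the interaction without tunicamycin replicate 3. Changes that turned direction were none of them called: with quantile normalization Bax (-0.0622) and Bid (-0.1602) for LPS against control, and Bcl2a1b (0.0113) and Pmaip1 (-0.0275) for tunicamycin against control; with a pseudocount of 0.1 the Bcl2a1d interaction (-0.0004). Leaving out 1 library, the log2 change ran from -0.0197 to 0.2413 for Bbc3, -0.3322 to 0.3285 for Pmaip1 and -0.1031 to 0.1108 for Bid (LPS against control), from -0.2582 to 0.046 for Bcl2 and -0.2351 to 0.2926 for Pmaip1 (tunicamycin against control), from -0.1253 to 0.1247 for Bax (both against tunicamycin), and for the interaction from -0.0453 to 0.1762 for Bcl2a1d and -0.2223 to 0.0277 for Bax. The cause was not tested. Bcl2l1 for both agents against control also lost its call with only the groups compared (adjusted p = 0.0515) and without trend (0.0677). Quantile normalization moved the share of higher calls for both agents against tunicamycin to 44.9%, against 55.4% without it. Replicate numbers did not pair the libraries (0 of 18 pairs had a correlation of deviations over 0.1; 10 of 18 were best with their own number), and with the replicate number as a block the members called were 4, 4, 4, 6, 5 and 2 over the 6 contrasts, with no call changed. Read depth is unknown, so precision rests on 3 libraries a group.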
